A study of Rattus norvegicus with 28 samples.

Results

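Genes of fatty acid synthesis and of its transcriptional control were followed in primary rat hepatocytes exposed to a chlorinated dioxin or to chlorinated furans. They were Fasn, Acly, Acaca, Scd (named Scd1 on the array), Srebf1, Me1, Elovl6, Thrsp and Fads1, 9 genes in all. They were chosen by name or by the accession of the probe, and 15 of the 41012 non-control probes of the array met that rule, among 37806 gene names in all. Each probe was kept apart: Fasn, Acaca, Srebf1, Me1, Elovl6 and Thrsp had 2 probes each, called 1 and 2 here, and Acly, Scd and Fads1 had 1. All 15 probes were well above background in both channels of all 28 arrays, as were 25712 of the 41012 non-control probes.

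The hepatocytes came from 2 adult female Sprague-Dawley rats, animals A and B, and were kept on Matrigel for 48 h with insulin, transferrin, selenium and 0.1 uM dexamethasone. They were then left untreated, or were kept for 24 h with the solvent DMSO at 0.1% or with a compound in that solvent. The 7 test groups were untreated cells, TCDD (2,3,7,8-tetrachlorodibenzo-p-dioxin) at 0.01 or 1 nM, TCDF (2,3,7,8-tetrachlorodibenzofuran) at 0.1 or 10 nM, and PeCDF (2,3,4,7,8-pentachlorodibenzofuran) at 0.02 or 2 nM. Each group had 4 arrays, 2 animals in 2 dye orientations, and every array set the test RNA against DMSO RNA of the same animal. The RNA of 3 dishes was pooled, so dishes are not replicates, and all values come from cells under dexamethasone and insulin. The labels do not say how many DMSO preparations an animal gave, so the groups' values may share their control.

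Liver cells make fatty acids from citrate. ATP-citrate lyase (Acly) splits citrate into acetyl-CoA, acetyl-CoA carboxylase (Acaca) turns that into malonyl-CoA, and fatty acid synthase (Fasn) joins the units into palmitate with NADPH that malic enzyme (Me1) helps to supply. Elovl6 lengthens palmitate, Scd and Fads1 introduce double bonds, Thrsp is a lipogenic helper protein that follows thyroid hormone and carbohydrate, and Srebf1 encodes the insulin-responsive transcription factor of the pathway. TCDD and both furans bind the aryl hydrocarbon receptor (AHR), a ligand-activated transcription factor. As a check of exposure, 7 of 7 measured AHR target genes were higher than in DMSO with TCDD 1 nM, 5 with TCDF 10 nM and 6 with PeCDF 2 nM, with median log2 ratios of 1.82, 1.39 and 1.61. Over all probes 4.54%, 0.984% and 1.69% were called higher in those groups. Of the AHR target genes Cyp1a1 was saturated in 20 of the 28 test channels and Cyp1a2 in 9, so their increases are lower bounds.

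Promoter windows (250 bases before the start site to 50 after it) were read from RefSeq, build GRCr8, where the table held them: Acly, Scd, Me1, Thrsp and Fads1 with 1 start each and Srebf1 with 2. Fasn, Acaca and Elovl6 are named only. The 4 windows shown belong to genes with a called decrease, and for Srebf1 the downstream start is shown. Capitals mark the CCAAT box (CCAAT), which the factor NF-Y binds, and the core of the AHR response element (GCGTG), on either strand, so ATTGG and CACGC are the same motifs read backwards. Acly lies at chr10:85963582-85963881, Scd at chr1:253231682-253231981, Srebf1 at chr10:45518961-45519260 and Thrsp at chr1:161138915-161139214, all on the minus strand.
Acly: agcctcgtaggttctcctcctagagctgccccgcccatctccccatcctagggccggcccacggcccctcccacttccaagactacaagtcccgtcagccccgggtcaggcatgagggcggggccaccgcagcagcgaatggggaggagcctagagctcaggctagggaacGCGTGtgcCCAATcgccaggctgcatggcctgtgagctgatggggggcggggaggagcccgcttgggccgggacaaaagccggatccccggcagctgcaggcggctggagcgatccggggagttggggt
Scd: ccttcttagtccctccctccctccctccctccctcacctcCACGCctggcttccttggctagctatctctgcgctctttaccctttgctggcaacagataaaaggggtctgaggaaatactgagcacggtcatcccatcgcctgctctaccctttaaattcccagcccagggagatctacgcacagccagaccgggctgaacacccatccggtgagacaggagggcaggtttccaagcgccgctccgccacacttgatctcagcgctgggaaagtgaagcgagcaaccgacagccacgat
Srebf1: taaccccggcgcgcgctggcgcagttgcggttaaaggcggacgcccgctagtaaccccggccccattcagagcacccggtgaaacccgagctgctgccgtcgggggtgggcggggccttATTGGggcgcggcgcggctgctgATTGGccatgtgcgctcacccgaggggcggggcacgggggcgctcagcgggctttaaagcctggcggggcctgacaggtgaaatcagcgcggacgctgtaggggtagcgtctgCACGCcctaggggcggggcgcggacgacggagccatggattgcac
Thrsp: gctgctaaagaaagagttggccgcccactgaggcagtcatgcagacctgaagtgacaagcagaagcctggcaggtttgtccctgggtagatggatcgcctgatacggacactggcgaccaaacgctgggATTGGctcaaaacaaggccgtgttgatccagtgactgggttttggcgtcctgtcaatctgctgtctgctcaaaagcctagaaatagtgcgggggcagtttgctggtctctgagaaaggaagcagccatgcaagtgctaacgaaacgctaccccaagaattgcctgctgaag
Acly had the AHR core 79 bases and the CCAAT box 71 bases before the start, whereas Thrsp had a CCAAT box but no AHR core, and Scd an AHR core but no CCAAT box. Over both strands, CCAAT was found in 5 of the 7 member windows against 37.5% of 33469 rat windows of this length, and GCGTG in 5 of 7 against 29.7%. The GC box (GGGCGG) was in 6 of 7 against 33.1%, and the E-box (CANNTG) in 5 of 7 against 72.1%. The sterol element searched (TCACNCCAC) was in 0 of 7 windows and in 1.12% of all. Matches of different motifs may overlap, and a match says only that the letters are there.

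Messenger RNA of Acly, Acaca, Scd and Srebf1 was lower than in DMSO at all 3 upper doses, each by at least 1 probe, and that of Fasn with TCDD and PeCDF. With TCDD 1 nM, 9 of 15 probes, of 7 of the 9 genes, were called lower (limma, Benjamini-Hochberg adjusted p under 0.05), and 0 higher. Over all probes tested 6.05% were called lower and 4.54% higher there. With PeCDF 2 nM 6 of 15 probes, of 5 genes, were called lower, where all probes gave 2.53% lower and 1.69% higher. With TCDF 10 nM 4 of 15, of 4 genes, were called lower, where all probes gave 1.11% lower and 0.984% higher. The median of the 15 log2 ratios was -0.67, -0.35 and -0.31 in that order, against -0.003, 0.000 and 0.003 over all probes. No member was called higher at an upper dose in this limma fit, and 0 rose at an unadjusted p under 0.05. In RNA from whole dishes, fewer expressing cells and less RNA per cell cannot be told apart.

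The animals are the same in every group by the labels. With the animal as a block in the fit, 10 probes were called lower and 1 higher with TCDD 1 nM, 7 lower with TCDF 10 nM and 7 lower with PeCDF 2 nM. Without animal A of the group 1 probe was called with TCDF 10 nM and 1 with PeCDF 2 nM, and without animal B 3 were called with each. Scaling the arrays to a common spread gave 5 with TCDD, 8 with TCDF and 0 with PeCDF, where 1035, 1021 and 247 of all probes were called lower. A fit of the furan groups alone gave 2 with PeCDF. Apart from scaling, the share of all probes called under these alternatives is not given here. Those counts have no background to be read against. All values called at the upper doses stayed below 0 under the 17 alternatives run for each. Many of these alternatives change the error or the set of probes and not the estimate, so their signs add no check.

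**Figure D1:**
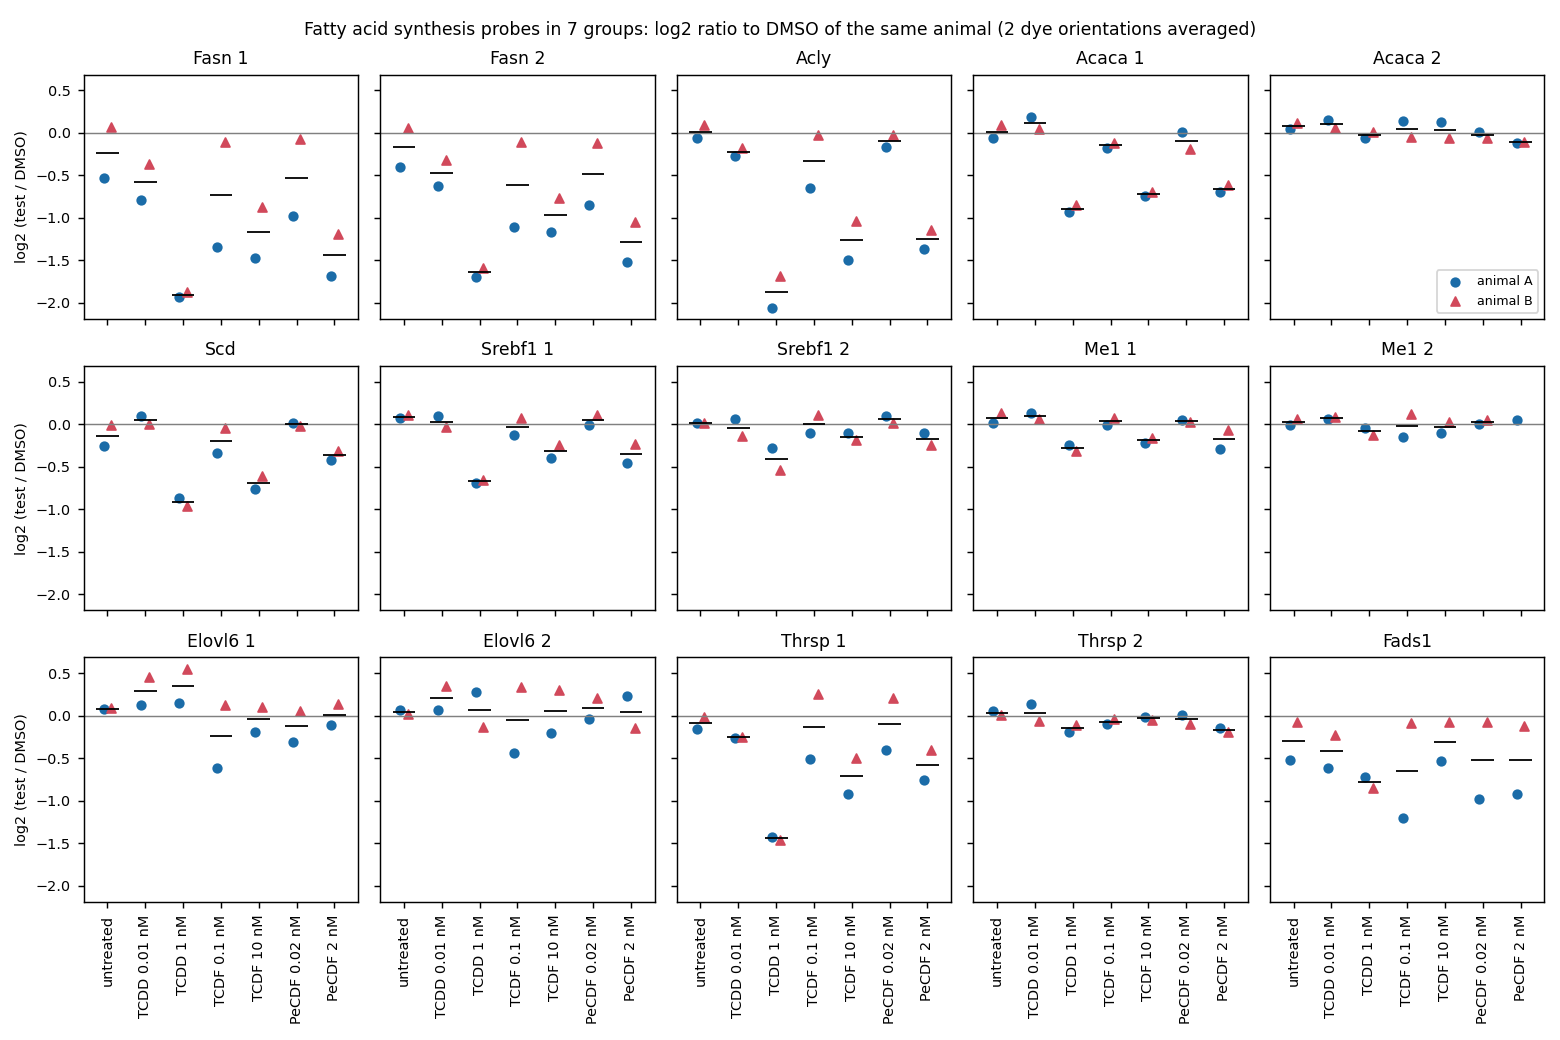
Log2 ratio of test RNA to DMSO RNA (vertical axis) of the 15 probes in the 7 groups (horizontal axis), with animal A as circles, animal B as triangles and their mean as a line, each point averaging 2 dye orientations. Acaca 1 is low at the 3 upper doses in both animals, whereas Fasn and Fads1 are also low in animal A in other groups.

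Acly, the first enzyme of the pathway in the cytosol, had log2 ratios of -2.06 in animal A and -1.69 in animal B with TCDD 1 nM. They were -1.50 and -1.03 with TCDF 10 nM and -1.37 and -1.14 with PeCDF 2 nM. In untreated cells Acly had -0.07 and 0.09, and at the lower doses -0.27 and -0.18 with TCDD, -0.65 and -0.02 with TCDF, and -0.17 and -0.03 with PeCDF. All 12 upper-dose arrays lay below every other array, and the nearest of the others was animal A at TCDF 0.1 nM. The fitted decreases were 3.66-fold with TCDD (log2 -1.87 ± 0.15 SE, adjusted p = 4.78e-05), 2.40-fold with TCDF (-1.27 ± 0.15, adjusted p = 0.00289) and 2.39-fold with PeCDF (-1.25 ± 0.15, adjusted p = 0.00239), each with n = 2 animals in the limma fit. Acly was saturated in 1 of the 4 DMSO channels at TCDF 10 nM and 1 at TCDF 0.1 nM.

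Acaca, the enzyme that commits acetyl-CoA to synthesis, showed a decrease with one probe and none with the other. Acaca 1, built on the accession X53003, had -0.94 and -0.85 in animals A and B with TCDD 1 nM, -0.75 and -0.69 with TCDF 10 nM, and -0.69 and -0.62 with PeCDF 2 nM. In the other 4 groups it lay between -0.20 and 0.18, so upper doses and the rest did not overlap. The fit gave 1.86-fold (-0.90 ± 0.06), 1.65-fold (-0.72 ± 0.06) and 1.58-fold (-0.66 ± 0.06) decreases, with limma adjusted p = 1.27e-05, 0.000281 and 0.000546. Acaca 2, built on NM_022193, had -0.03 ± 0.06, 0.03 ± 0.06 and -0.11 ± 0.06 in the same groups, and its limma adjusted p-values were 0.839, 0.949 and 0.342. The 2 dye orientations of Acaca 2 differed by a median of 0.22 and by up to 0.57 on the log2 scale, against 0.04 and 0.09 for Acaca 1.

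Fasn, the synthase itself, fell with TCDD 1 nM, where Fasn 1 had -1.93 and -1.88 and Fasn 2 -1.69 and -1.59 in animals A and B. The decreases were 3.74-fold (-1.90 ± 0.29, limma adjusted p = 0.00241) and 3.12-fold (-1.64 ± 0.24, adjusted p = 0.00166). With PeCDF 2 nM Fasn 1 had -1.68 and -1.19, a 2.70-fold decrease (-1.43 ± 0.29, limma adjusted p = 0.0248), and Fasn 2 a 2.45-fold decrease (-1.29 ± 0.24, adjusted p = 0.0153). With TCDF 10 nM Fasn 1 had -1.47 and -0.88 and missed the threshold (-1.17 ± 0.29, limma adjusted p = 0.0800), as did Fasn 2 (-0.96 ± 0.24, adjusted p = 0.0743). With the animal as a block these 2 were called (adjusted p = 0.00651 and 0.0054).

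Fasn also differed between the animals outside the upper doses. Fasn 1 was -0.53 in animal A and 0.06 in animal B in untreated cells. It was -0.79 and -0.37 with TCDD 0.01 nM, -1.34 and -0.12 with TCDF 0.1 nM, and -0.98 and -0.08 with PeCDF 0.02 nM. Animal A was the lower of the pair in 7 of 7 groups, and the gap between animals reached 1.23 where the gap between dye orientations of an animal reached 0.17. Animal A at TCDF 0.1 nM thus lay below animal B at TCDF 10 nM and at PeCDF 2 nM. The 2 Fasn probes tracked each other over the 14 animal-level ratios, with a largest gap of 0.30.

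Fads1, the delta-5 desaturase of polyunsaturated fatty acids, also differed between the animals. In animal A it was -0.52 untreated, -0.61 and -0.72 with TCDD 0.01 and 1 nM, -1.21 and -0.53 with TCDF 0.1 and 10 nM, and -0.98 and -0.92 with PeCDF 0.02 and 2 nM. In animal B it was -0.85 with TCDD 1 nM and between -0.23 and -0.07 in the other 6 groups. Fads1 was below DMSO on 4 of 4 arrays of every group, untreated cells included, but was not called in any. The TCDD 1 nM value was -0.79 ± 0.28 (limma adjusted p = 0.120), or adjusted p = 0.0172 with the animal as a block.

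Scd, the delta-9 desaturase that makes oleate, fell at each upper dose. It had -0.86 and -0.97 in animals A and B with TCDD 1 nM, -0.77 and -0.61 with TCDF 10 nM, and -0.42 and -0.32 with PeCDF 2 nM. Untreated cells had -0.26 and -0.02, and the lower doses 0.10 and 0.00 with TCDD, -0.34 and -0.05 with TCDF, and 0.01 and -0.02 with PeCDF. The TCDD and TCDF upper-dose arrays lay below all untreated arrays, whereas those of PeCDF overlapped them. The untreated arrays were read by the scanner software in the session of TCDD and not in that of the furans. The decreases were 1.89-fold (-0.91 ± 0.08), 1.61-fold (-0.69 ± 0.08) and 1.29-fold (-0.37 ± 0.08), with limma adjusted p = 6.4e-05, 0.00215 and 0.0259. Scd is bright: it was saturated in 2 of 4 DMSO channels at TCDF 10 nM, in 1 at PeCDF 2 nM and in 0 at TCDD 1 nM.

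Srebf1, the regulator, fell at each upper dose by its first probe. Srebf1 1 had -0.69 and -0.65 in animals A and B with TCDD 1 nM, -0.39 and -0.25 with TCDF 10 nM, and -0.46 and -0.23 with PeCDF 2 nM, and between -0.13 and 0.11 in the other groups. These were decreases of 1.59-fold (-0.67 ± 0.07), 1.25-fold (-0.32 ± 0.07) and 1.27-fold (-0.35 ± 0.07), with limma adjusted p = 0.000198, 0.0385 and 0.0189. Srebf1 2 was called with TCDD only (-0.41 ± 0.07, limma adjusted p = 0.00552), where animals A and B had -0.28 and -0.53. It had -0.15 ± 0.07 with TCDF 10 nM and -0.18 ± 0.07 with PeCDF 2 nM. Both Srebf1 probes carry the accession XM_213329, a predicted transcript, and the isoforms of the gene cannot be told apart here.

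Thrsp 1 had -1.42 and -1.46 in animals A and B with TCDD 1 nM, a 2.72-fold decrease (-1.44 ± 0.18, limma adjusted p = 0.000746). With TCDF 10 nM it had -0.92 and -0.50 (-0.71 ± 0.18, limma adjusted p = 0.0814) and with PeCDF 2 nM -0.75 and -0.40 (-0.58 ± 0.18, adjusted p = 0.113). Both were called with the animal as a block (adjusted p = 0.0209 and 0.032). At the lower furan doses the animals stood on opposite sides of DMSO, with -0.51 and 0.25 at TCDF 0.1 nM and -0.40 and 0.20 at PeCDF 0.02 nM. Thrsp 2, a dim probe built on the expressed sequence tag BF417495, had -0.15 ± 0.05 with TCDD 1 nM (limma adjusted p = 0.0743) and -0.17 ± 0.05 with PeCDF 2 nM (adjusted p = 0.0816), and the choice of processing moved the TCDD value between -0.37 and -0.03.

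Me1, which supplies NADPH, was called by 1 probe, and Elovl6, which lengthens palmitate, by none in the fit without a block. Me1 1 fell 1.22-fold with TCDD 1 nM (-0.28 ± 0.05, limma adjusted p = 0.00733), with -0.24 and -0.32 in animals A and B, and had -0.19 ± 0.05 with TCDF 10 nM and -0.18 ± 0.05 with PeCDF 2 nM. Me1 2 had -0.08 ± 0.06 with TCDD 1 nM (limma adjusted p = 0.490), and its animal B value was missing at PeCDF 2 nM because a spot was marked. Elovl6 1 was above DMSO on 4 of 4 arrays with TCDD 1 nM (0.15 and 0.55 in animals A and B; 0.35 ± 0.17, limma adjusted p = 0.241) and was called higher with the animal as a block (adjusted p = 0.0375). Elovl6 2 had 0.27 and -0.13 there (0.07 ± 0.18). Without animal B, the TCDD 1 nM calls of Me1 1 and Srebf1 2 were lost and the other 7 stayed.

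**Figure D2:**
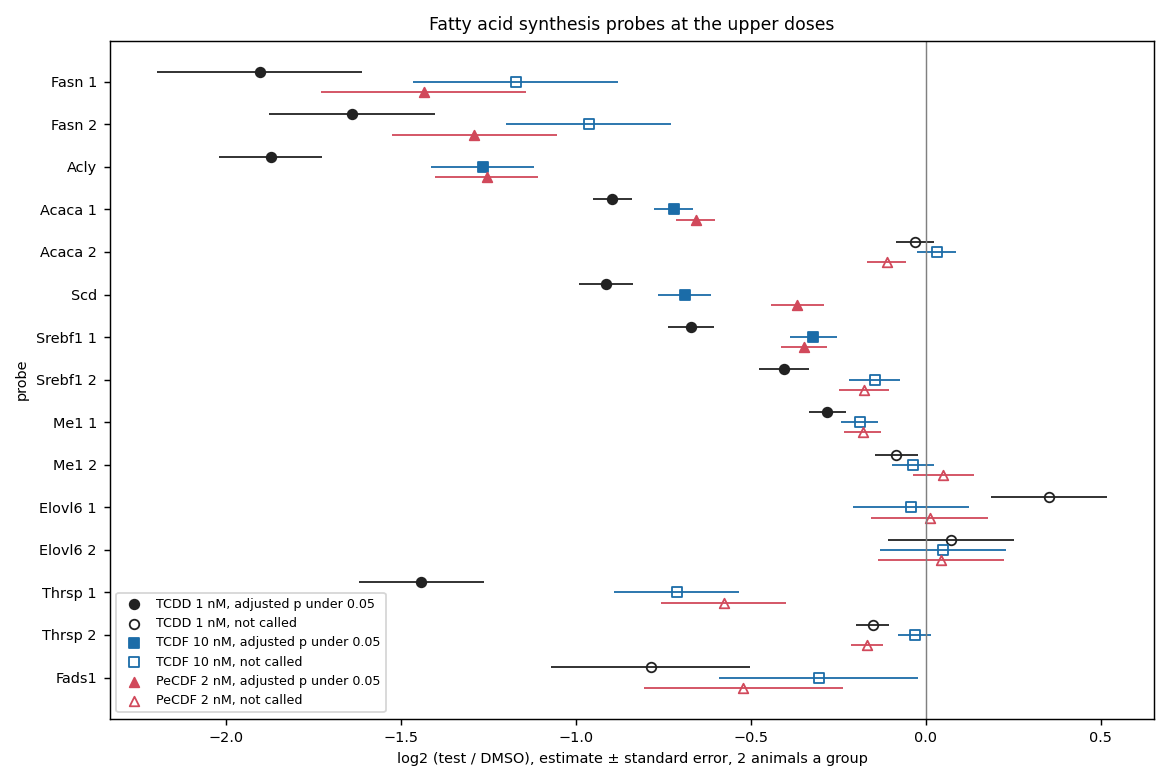
Estimated log2 ratio to DMSO (horizontal axis, with standard error from limma, 2 animals a group) of each probe (vertical axis) with TCDD 1 nM, TCDF 10 nM and PeCDF 2 nM, filled where adjusted p was under 0.05. TCDD has 9 filled points, TCDF 4 and PeCDF 6, all left of 0.

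Probes of the same gene differed in how closely they ran together. Over the animal-level ratios the pairs had a Pearson r of 0.997 for Fasn and 0.825 for Srebf1 (14 ratios each). It was 0.506 for Acaca, 0.528 for Me1 (13 ratios), 0.515 for Elovl6 and 0.429 for Thrsp, as a description over ratios that share animals and DMSO RNA. The largest gap within a pair was 1.36 for Thrsp and 0.87 for Acaca, both with TCDD 1 nM. Mean log2 signals of probes 1 and 2 were 12.41 and 8.12 for Srebf1 and 12.17 and 7.62 for Elovl6. Thrsp had 11.87 and 6.30, Fasn 12.28 and 11.86, Acaca 12.77 and 11.09, and Me1 12.14 and 11.93. The part of signal in these differences was not tested.

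**Figure D3:**
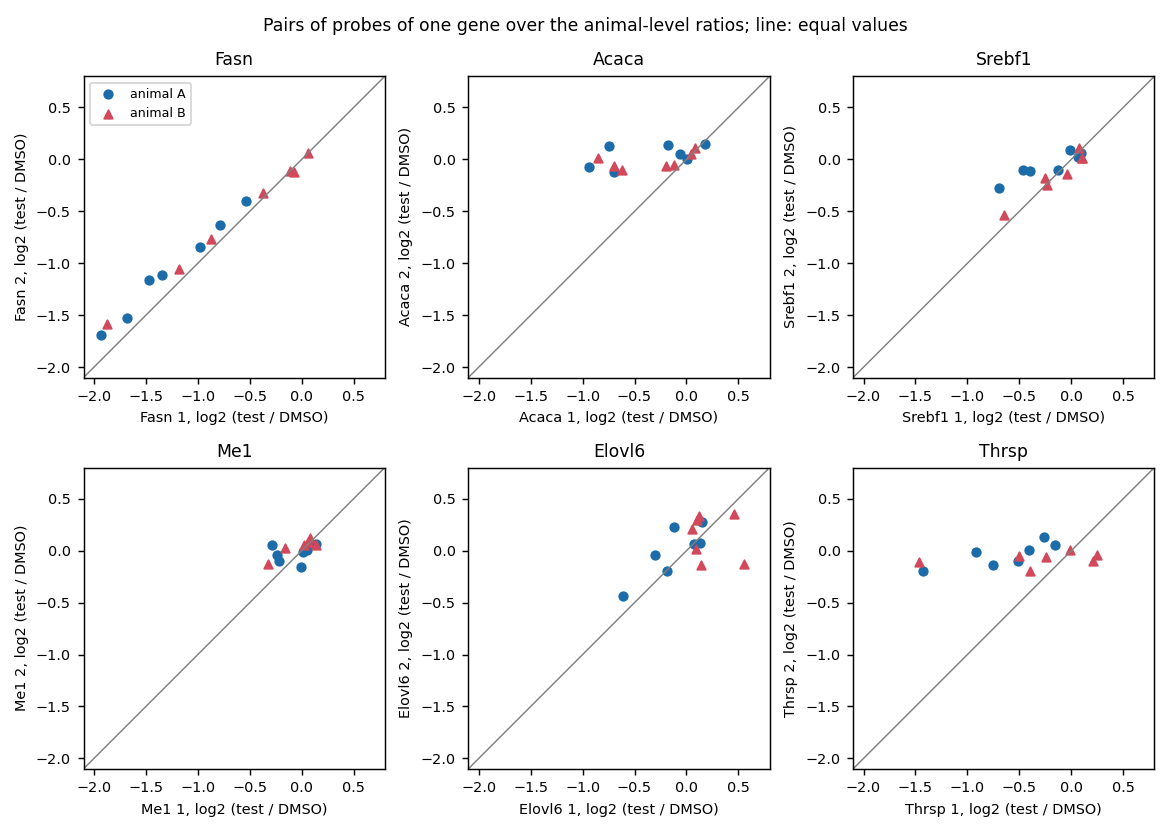
Log2 ratio to DMSO of probe 1 (horizontal axis) and probe 2 (vertical axis) of the 6 genes with 2 probes, 1 point for each animal in each group, with the line of equal values. The Fasn points follow the line down to -1.93, whereas Acaca 2 and Thrsp 2 stay near 0 where Acaca 1 and Thrsp 1 fall.

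No member passed the threshold at a lower dose or in untreated cells. In untreated cells, with TCDD 0.01 nM, with TCDF 0.1 nM and with PeCDF 0.02 nM, limma called 0 of 15 probes, where all probes gave 0.0423%, 0.442%, 0% and 0% called either way. At an unadjusted p under 0.05 the member counts were 0, 0, 6 and 0, all 6 lower. The share of all probes at that level is not given here, so these counts have no background to be read against. The member values ranged from -0.30 to 0.09 in untreated cells, from -0.58 to 0.29 with TCDD, from -0.73 to 0.04 with TCDF and from -0.53 to 0.09 with PeCDF.

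The dose step of 100 times was called for 6 probes with TCDD (all probes: 2.26% lower). Acly fell by 1.65 ± 0.21 between 0.01 and 1 nM (limma adjusted p = 0.00234), Thrsp 1 by 1.19 ± 0.25 (adjusted p = 0.0304), Acaca 1 by 1.01 ± 0.08 (adjusted p = 0.000199), Scd by 0.96 ± 0.11 (adjusted p = 0.00128), Srebf1 1 by 0.70 ± 0.09 (adjusted p = 0.00331) and Me1 1 by 0.38 ± 0.07 (adjusted p = 0.0215), on the log2 scale. Both Fasn probes joined them with the animal as a block (-1.32 and -1.16, adjusted p = 0.0111 and 0.00704). With the furans 1 probe was called, Acaca 1, which fell by 0.57 ± 0.08 with TCDF (adjusted p = 0.0419, all probes: 0.0714% lower) and by 0.56 ± 0.08 with PeCDF (adjusted p = 0.0391, all probes: 0.0608% lower). With the block Acaca 1 missed the threshold in both (0.0552 and 0.0535) while Acly was called (-0.93 with TCDF, adjusted p = 0.0352, and -1.16 with PeCDF, adjusted p = 0.0147). Without animal A or animal B of either TCDF group the TCDF step had 0 calls.

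Between compounds the nM doses differed, TCDF being given at 10 times and PeCDF at 2 times the TCDD dose. The TCDD and untreated arrays were also read by the scanner software in another session than the furans, so compound and session cannot be told apart. Limma called 0 of 15 probes for TCDD 1 nM against TCDF 10 nM, for TCDD 1 nM against PeCDF 2 nM and for TCDF 10 nM against PeCDF 2 nM, where all probes gave 0.0767%, 0.801% and 0% called either way. At an unadjusted p under 0.05 the counts were 4, 6 and 1, all lower, without a share of all probes at that level to read them against. The nearest to the threshold was Scd, 0.55 ± 0.11 lower with TCDD than with PeCDF (-0.55, limma adjusted p = 0.0520, and 0.0457 with the animal as a block). Scd was saturated in 1 of 4 DMSO channels at PeCDF 2 nM and 0 at TCDD 1 nM, so the PeCDF decrease may be understated and this difference overstated. For Acly the measured difference between TCDF and PeCDF was -0.01 with an interval from -0.47 to 0.45, but 1 of 4 DMSO channels was saturated at TCDF 10 nM and 0 at PeCDF 2 nM, so the TCDF decrease may be understated. For Fasn 1, with no saturated channel, it was 0.26 with an interval from -0.66 to 1.19 (95% intervals).

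Other genes of lipid synthesis were followed by lists. Over all probes 6.05% were called lower with TCDD 1 nM, 1.11% with TCDF 10 nM and 2.53% with PeCDF 2 nM. Of 16 other measured enzymes of synthesis, elongation and desaturation, 4 fell with TCDD 1 nM, 0 were called with TCDF 10 nM and 1 fell with PeCDF 2 nM, and the list medians were -0.21, -0.06 and -0.10. At an unadjusted p under 0.05, 7, 3 and 3 were lower, without a share of all probes at that level to read them against. The 4 were Acss2, which makes acetyl-CoA from acetate (-0.98 ± 0.22, limma adjusted p = 0.0177), Acsl5, an acyl-CoA synthetase (-0.49 ± 0.07, adjusted p = 0.00188), Slc25a1, the mitochondrial citrate carrier (-0.43 ± 0.07, adjusted p = 0.00224), and Mid1ip1, an activator of acetyl-CoA carboxylase (-0.28 ± 0.05, adjusted p = 0.00812). Mid1ip1 was also the 1 called with PeCDF.

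Of the 5 genes that supply NADPH none was called with TCDD 1 nM or TCDF 10 nM, and 2 fell with PeCDF 2 nM, Tkt (-0.40 ± 0.07, limma adjusted p = 0.0109) and Taldo1 (-0.24 ± 0.06, adjusted p = 0.0418) of the pentose phosphate path. All probes gave 6.05%, 1.11% and 2.53% called lower with TCDD 1 nM, TCDF 10 nM and PeCDF 2 nM, and 1.69% higher with PeCDF 2 nM. At an unadjusted p under 0.05, limma had 1 lower and 1 higher with TCDD 1 nM and 2 lower with TCDF 10 nM. These unadjusted counts have no share of all probes to be read against. With TCDD 1 nM Tkt had -0.19 ± 0.07, Idh1 -0.03 ± 0.11 and Pgd 0.02 ± 0.13. Of 18 regulators and glucose-sensing genes 3 fell with TCDD 1 nM, 1 with TCDF 10 nM and 1 with PeCDF 2 nM, where 1 rose, Insig2 (0.25 ± 0.05, limma adjusted p = 0.0239). Pklr, liver pyruvate kinase, fell by 0.98 ± 0.20 (adjusted p = 0.0108) and Mlx, the partner of the glucose-sensing factor ChREBP, by 0.37 ± 0.07 (adjusted p = 0.0077), whereas Mlxipl, ChREBP itself, had -0.20 ± 0.06 (adjusted p = 0.0655).

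Of 13 genes of triglyceride assembly and storage 4 fell with TCDD 1 nM, 2 with TCDF 10 nM and 0 were called with PeCDF 2 nM, where limma had 5 lower and 1 higher at an unadjusted p under 0.05. All probes gave 6.05%, 1.11% and 2.53% called lower in these groups by adjusted p, and no such share is given for the unadjusted counts. The values that follow are those with TCDD 1 nM. Lpin1, a phosphatidate phosphatase, fell by 0.69 ± 0.08 (limma adjusted p = 0.000347), Mttp, which loads lipoproteins, by 0.77 ± 0.14 (adjusted p = 0.00656), Plin2, a lipid droplet coat protein, by 0.56 ± 0.06 (adjusted p = 0.000414) and Agpat3, an acyltransferase, by 0.33 ± 0.05 (adjusted p = 0.00347).

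**Figure D4:**
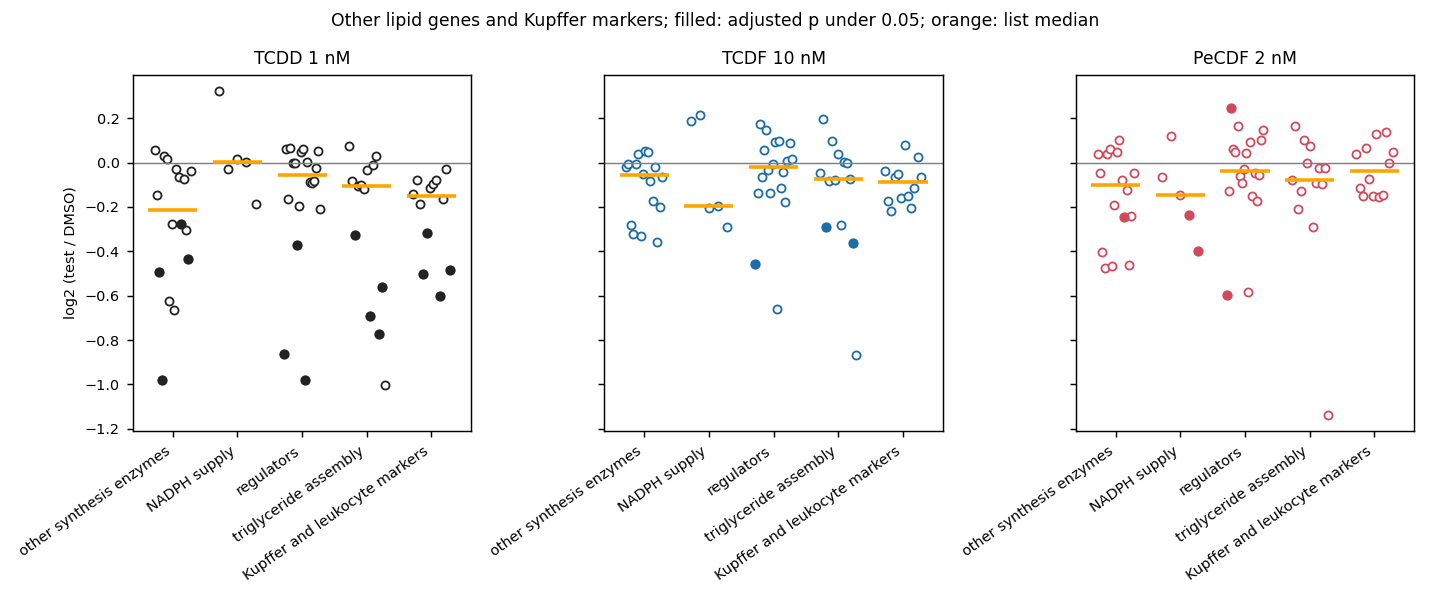
Log2 ratio to DMSO (vertical axis) of each measured gene of 4 lists of lipid genes and of Kupffer and leukocyte markers (horizontal axis) at the 3 upper doses, filled where adjusted p was under 0.05, with the list median in orange. With TCDD 1 nM the medians ran from -0.21 for other synthesis enzymes to 0.00 for NADPH supply.

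The profile shared by the 9 probes called with TCDD 1 nM was most like that of Gamt, a creatine synthesis enzyme (r = 0.973), then Tmem19 (0.970), Mdh1, the cytosolic malate dehydrogenase (0.970), Vkorc1, the vitamin K reductase (0.965), and Bbox1, which completes carnitine (0.963), over 14 animal-level ratios. Gamt had -0.83 ± 0.10 with TCDD 1 nM and Bbox1 -1.63 ± 0.19. Each member was also set against the mean of the called probes without itself. That mean could still hold the gene's other probe, as it did for Srebf1 1. Srebf1 1 then had 0.980 and Acly 0.974, and the other called probes had 0.792 to 0.943. Of the probes not called, Thrsp 2 had 0.584, Fads1 0.487, Acaca 2 0.271, Elovl6 2 0.223 and Elovl6 1 -0.07. The called probes were chosen for their values with TCDD 1 nM, so their likeness is partly set by that choice.

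Of the hepatocyte markers 10 of 10 passed the filter on dim probes, as did 37823 of all 41012 probes, so this count alone does not show the cell type. Alb and Tf were saturated in 28 of 28 test channels, and in 26 and 28 DMSO channels, so their ratios cannot show a change. Apoa1, Ttr, Serpina1 and Apob were saturated in 18, 18, 13 and 1 test channels. Of the 4 markers with no saturated channel, Cps1 fell with TCDD 1 nM (-0.84 ± 0.16, limma adjusted p = 0.00724), and Cyp2e1, Hnf4a and Tat had 0.06 ± 0.07, 0.05 ± 0.07 and 0.02 ± 0.12. Apob rose with TCDD 1 nM (0.53 ± 0.09, limma adjusted p = 0.00493), and Tat rose with PeCDF 2 nM (0.57 ± 0.12, adjusted p = 0.0303). Of 12 Kupffer cell and leukocyte markers 4 fell with TCDD 1 nM (Lyz2, Vsig4, C1qc and Cd163, range of all 12 from -0.60 to -0.03) and 0 were called by limma with the furans at their upper doses (3 lower with TCDF and 1 higher with PeCDF at an unadjusted p under 0.05), and the list mean was -0.20 and -0.28 in animals A and B with TCDD 1 nM against -0.08 and -0.09 in untreated cells. Of stellate, endothelial, bile duct and adipocyte markers 2 of 10, 0 of 7, 2 of 8 and 1 of 7 fell with TCDD 1 nM by limma (endothelial markers at an unadjusted p under 0.05: 1 lower and 1 higher). All probes gave 6.05% called lower and 4.54% higher with TCDD 1 nM, and these small counts were not tested against that share. The unadjusted counts of these markers have no share of all probes to be read against. Of the adipocyte markers 1 also rose, Lpl (0.30 ± 0.06, limma adjusted p = 0.0131). The part of these cells in the results was not tested.

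Over the 28 arrays 72.0% to 100% of probes were well above background in the test channel. The log2 ratios of an animal's 2 dye orientations correlated across probes with r from 0.512 to 0.826 at the upper doses and from 0.005 to 0.450 in the other groups. With 2 animals a group, the number of animals limits the precision of every value.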

How the data were processed

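RNA was measured on 28 Agilent 2-colour arrays, of which 15 of 41012 non-control probes belong to the 9 genes. The scanner files deposited by the authors hold mean spot and median background signals in units of intensity. The deposited log10 ratio is the authors' own background-subtracted and dye-normalized value, red over green, and the deposited series table holds the same log10 ratios turned to test over DMSO. Scans were read with Feature Extraction, version 9.1 per the submitters' processing notes and an earlier version per the file headers. A genome build or aligner does not apply to these files.

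With R 4.3.3 and limma 3.58.1, intensities were corrected by normexp (offset 50) and normalized by loess within each array, with 2256 control spots at weight 0. Marked spots were dropped (1067, 0.0921%). Spots were averaged, turned to test over DMSO, and the 2 dye orientations of an animal averaged, so that 14 animal-level log2 ratios entered one limma fit of 7 groups (7 residual and 3.12 prior degrees of freedom). An animal-level ratio needed both orientations (941 ratios, 0.178%, were missing). Probes well above background on all 4 test channels of a group or on 14 of 28 DMSO channels were kept (37823), and Benjamini-Hochberg adjusted p-values were taken over all of them, each probe on its own, with a call at 0.05. The fit was tested on simulated data. Intervals of a difference cover 95%.

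All 15 probes of the members are described. Of every other list up to 4 genes with the smallest p at TCDD 1 nM are given, and the 5 genes most like the mean of the members called there. Some genes called with a furan were also named after their values were seen, and others called with a furan are not named. List genes are represented by their brightest probe. Counts at an unadjusted p under 0.05 are given without the share of all probes at that level. Values of some list genes are not reported here, though the list counts include them. The members and lists were chosen with earlier results of these data known. The same animals served all groups by the labels. As a check, the deviations of animal A from the group mean correlated between groups with r from -0.425 to 0.568 (median 0.119; 11 of 21 pairs over 0.1). Alternatives were the authors' log10 ratios, no background correction, other filters, 1 probe per gene, marked spots kept, the animal as a block, array-level fits with a dye term, 1 session alone, scaling between arrays and each animal left out. Single dye orientations, dye by session and a block for each animal and session were chosen after seeing the data. Promoter windows came from a RefSeq table read with Python 3.11.15.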

Additional observations from a re-analysis of the deposited data

Results flagged for a closer look

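In 1 of 104 sets of 4 arrays (a probe in a group), an array stood apart from the other 3. Thrsp 2 with TCDD 1 nM had -0.293 on the array of animal A with the test RNA in green, against -0.122 to -0.091 on the others, a gap of 0.849 of the whole range, past the critical value of Dixon's test. Chance flags about 1 in 20 such sets. The probe is dim and was not called in that group.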

How the results depend on the processing

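Of 320 values of the called member probes at the upper doses over 17 alternatives for each comparison, 320 stayed below 0 and 283 stayed called, and no result reversed. Block, dye-term, filter, brightest-probe, 1-session and marked-spot alternatives left the range of these values unchanged, so their signs add no check. Agilent's log ratio and the series table hold the same values and amount to 1 alternative. Member probes called changed as follows, and the cause was not tested. Numbers of all probes called are given for scaling only, so the other counts have no background to be read against. Scaling between arrays gave 5 for TCDD 1 nM (9 as reported), 0 for PeCDF 2 nM (6), 8 for TCDF 10 nM (4) and 0 for each dose step (6 for TCDD, 1 for each furan). It also moved the split of all called probes from 640 higher and 955 lower to 53 and 247 with PeCDF 2 nM, from 372 and 420 to 1523 and 1021 with TCDF 10 nM, and from 1716 and 2288 to 476 and 1035 with TCDD 1 nM. With the animal as a replicate block 7 were called for TCDF 10 nM and 1 for TCDD 1 nM against PeCDF 2 nM (0 as reported), and with a block for each animal and session, chosen after seeing the data, 7 and 4, with 2 for TCDD 1 nM against TCDF 10 nM (0 as reported) and 2 for each furan dose step. The report gives the single calls that the block changed. An array-level fit with a dye term gave 2 for TCDF 0.1 nM (0 as reported), 8 for TCDF 10 nM, 5 and 4 for TCDD against PeCDF and TCDF, and 5 and 4 for the TCDF and PeCDF dose steps. With dye by session it gave 1, 8, 5, 4, 4 and 4 in that order. Each furan dose step had 0 calls with Agilent's log ratio, the series table, no background correction, 1 session alone and the + orientation, and 1 session alone gave 2 for PeCDF 2 nM. TCDD 1 nM against PeCDF 2 nM had 1 call with the - orientation, the brightest probe and the strict filter. Leaving out 1 animal gave 7 to 9 for TCDD 1 nM, 1 to 3 for TCDF 10 nM, 1 to 3 for PeCDF 2 nM, 0 to 1 for TCDD against PeCDF, 4 to 6 for the TCDD step, 0 to 0 for the TCDF step and 0 to 1 for the PeCDF step. For the other lipid lists the alternatives, leaving no animal out, called 1 to 7 synthesis enzymes, 0 to 2 NADPH genes, 2 to 6 regulators and 2 to 5 triglyceride genes with TCDD 1 nM. In the same order they called 0 to 3, 0 to 2, 1 to 5 and 0 to 4 with TCDF 10 nM, and 0 to 5, 0 to 2, 1 to 4 and 0 to 5 with PeCDF 2 nM. Saturated DMSO channels give only a lower bound on the DMSO signal of Acly (2 of 28) and Scd (5 of 28), and the dimmest probe, Thrsp 2, had a mean log2 signal of 6.30.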
